A study of Mus musculus with 18 samples.

Results

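The metallothionein gene cluster on mouse chromosome 8 was followed through RNA sequencing of 3T3-L1 adipocytes with vectors to raise or lower transcription factor IRF3. Its members were the gene models lying wholly between bases 96655000 and 96710000 of chromosome 8 on build mm9 that held at least 20 counts over all libraries. The window held 4 gene models, and 2 of them, Mt1 and Mt2, reached the minimum, out of 27473 gene models in the deposited table. The table gives UCSC known-gene identifiers without symbols, so the names rest on position. Mt2 was the 3-exon model uc009mvv.1 (96696518 to 96697467, plus strand, 556 bases of exon). Mt1 was the 2-exon model uc009mvw.2 (96702989 to 96704227, plus strand, 755 bases of exon). The start of the second exon lay 509 bases past the start of the gene in Mt2 and 734 bases past it in Mt1, and the same distances were found between the RefSeq start and the GENCODE second exon on build GRCm38. Between Mt4, the first gene of the cluster, and Mt1 the second exons began 41592 bases apart on both builds.

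The cells were 3T3-L1, a mouse fibroblast line that is differentiated into adipocytes in culture, at passage 15, and every group carried a lentiviral vector for 6 days. Cells labelled 2D (Irf3_2D) carried a vector for overexpression of Irf3, and cells with an EGFP vector were their control. What 2D stands for is not given in the labels. The other arm held cells with an Irf3 hairpin (shIrf3) and cells with a luciferase hairpin as control (shLuc), both of them with and without lipopolysaccharide (LPS, a cell wall component of bacteria). LPS treatment lasted 6 more days, as stated for the knockdown cells, and no dose is stated. How long the cells without LPS were kept is not stated, so effects of LPS and of culture time cannot be told apart. Each of the 6 groups had 3 libraries. No label ties the 3 libraries of a group to separate cultures, so p-values measure the spread between libraries, which may be technical.

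Metallothioneins are small, cysteine-rich proteins that bind zinc and copper and buffer cadmium and oxidants. Mt1 and Mt2 are made in most tissues, and their transcription rises with zinc through the factor MTF1, which binds metal response elements in their promoters, and with glucocorticoids and inflammatory signals. Mt3 is known mainly from brain and Mt4 from stratified epithelia.

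Total counts ran from 22143302 to 34368259 per library. No identifier was found in the gene tables used here, and only the cluster was named by position. Neither the targeted gene, the adipocyte markers nor other genes of metal handling were read out here. The library shLuc replicate 1 stood apart from its group: mitochondrial gene models (chromosome M) took 14.2% of its counts, against 2.88% in shLuc replicate 2 and 5.19% in shLuc replicate 3, and at most 7.17% in a library of the other groups. Results that rest on shLuc are therefore given with and without it. This library also had the highest Mt1 and Mt2 levels of its group. Leaving it out thus lowers the control mean of both genes, and calls made without it are no independent support.

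The bases before the annotated starts of Mt1 and Mt2 are shown because MTF1 binds in the promoters of both genes. Levels of both genes also moved together across libraries, and whether MTF1 had a part in this was not tested. Whether transcription began at these annotated starts was not tested, so the printed bases may not hold the elements that MTF1 binds. The sequences are the 250 bases before the RefSeq start on GRCm38.p6, plus strand, at chr8:94178839-94179088 for Mt1 and chr8:94172368-94172617 for Mt2. Capitals mark the metal response element core, searched as TGCACNC and TGCGCNC on both strands, and the antioxidant response element core, searched as TGACNNNGC on both strands.
Mt1: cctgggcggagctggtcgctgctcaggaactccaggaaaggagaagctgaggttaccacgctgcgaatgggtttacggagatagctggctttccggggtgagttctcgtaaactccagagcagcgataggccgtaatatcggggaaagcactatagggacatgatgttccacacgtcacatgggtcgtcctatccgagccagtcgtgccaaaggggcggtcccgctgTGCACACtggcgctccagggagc
Mt2: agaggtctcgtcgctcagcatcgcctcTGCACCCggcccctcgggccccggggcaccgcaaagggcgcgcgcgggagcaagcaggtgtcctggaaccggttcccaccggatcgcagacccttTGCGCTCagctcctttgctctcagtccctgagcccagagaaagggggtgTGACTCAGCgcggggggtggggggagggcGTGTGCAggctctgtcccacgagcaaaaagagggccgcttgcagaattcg

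In these 250 bases the metal response core occurred 3 times in Mt2 and 1 time in Mt1. Of 32851 RefSeq promoter windows, 21.4% held at least 1 such core in the same stretch and 1.26% held at least 3. With the 50 bases past the start included, the count was 4 in Mt2 and 3 in Mt1, and 1.97% of all windows of 300 bases held at least 3. The additional Mt1 cores lay from base 3 to base 9 and from base 21 to base 27 past the start. Over the same 300 bases Mt3 and Mt4 held 1 core each. The single antioxidant core, TGACTCAGC, lay in Mt2 from 79 to 71 bases before the start, and 10.2% of all 250-base windows held one. The core of interferon regulatory factor elements, searched as AANNGAAA on both strands, was found in 0 of the 4 promoters over 300 bases, and in 23.9% of all such windows. These are matches of letters in a window and say nothing of binding. They depend on the RefSeq start, and bases more than 50 past it were not searched. The counts therefore do not show that Mt1 has fewer cores of either kind than Mt2.

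Mt1 was abundant in the adipocytes, Mt2 was low, and Mt3 and Mt4 had 0 counts. Mt1 held 35345 counts over the 18 libraries, from 1161 to 3333 per library. Per length, its level stood between the 93.1st and the 98.1st percentile of the gene models with a count in the same library. Mt2 held 1069 counts, from 20 to 108 per library, between the 41.5th and the 62.9th percentile. As RPKM, which scales counts by library size and by kilobases of exon, Mt1 ran from 52.0 to 147.9 and Mt2 from 1.22 to 6.57. In each library Mt1 exceeded Mt2 per kilobase by 16.9-fold to 43.6-fold. The second exon of the Mt1 model, 505 bases, runs through what GENCODE gives as exon 2, intron 2 and exon 3, so its level per kilobase is spread over intron bases. In the GENCODE transcripts the longest run of identical bases shared by Mt1 and Mt2 was 20 bases, and 0 of their stretches of 50 bases occurred in a transcript of another gene. A count of 0 for Mt3 and Mt4 allows up to 3 counts per library, or 0.135 CPM (counts per 1000000 counts of the library) in the shallowest library. The counting interval of Mt2 is wide: 20 counts, in EGFP replicate 2, have an exact 95% Poisson interval from 12.2 to 30.9. Intervals and limits of this kind cover counting error only.

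Mean levels of Mt1 lay close together in 5 of the 6 groups and were lowest in the EGFP cells. The place of shLuc among these 5 rested on shLuc replicate 1, without which its mean was 59.3 CPM over 2 libraries, nearer to EGFP. Mt1 averaged 71.0 ± 7.97 CPM in Irf3_2D and 52.9 ± 11.8 CPM in EGFP (SD, n = 3 each). In the other arm it averaged 72.7 ± 2.33 CPM in shIrf3 with LPS, 71.0 ± 2.03 CPM in shIrf3, 79.7 ± 6.45 CPM in shLuc with LPS and 76.8 ± 30.3 CPM in shLuc (SD, n = 3 each). The mean was highest in shLuc with LPS, and no pair of neighbours in the order of the means, EGFP apart, differed by more than the SD of the wider group of the pair. Libraries of shLuc had a coefficient of variation of 39.5% for Mt1, against 2.85% in shIrf3 and 3.20% in shIrf3 with LPS. Mt2 averaged 1.89 ± 0.573 CPM in Irf3_2D, 1.16 ± 0.430 CPM in EGFP, 3.06 ± 0.113 CPM in shIrf3 with LPS, 1.94 ± 0.592 CPM in shIrf3, 2.74 ± 0.788 CPM in shLuc with LPS and 1.87 ± 1.37 CPM in shLuc (SD, n = 3 each). Both groups with LPS had the highest means of Mt2, and EGFP again had the lowest with all libraries kept. Without shLuc replicate 1 the shLuc mean of Mt2 was 1.08 CPM over 2 libraries, below that of EGFP. CPM values here are scaled by TMM factors over all 18 libraries. In such bulk samples fewer expressing cells and less RNA per cell cannot be told apart.

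**Figure D1:**
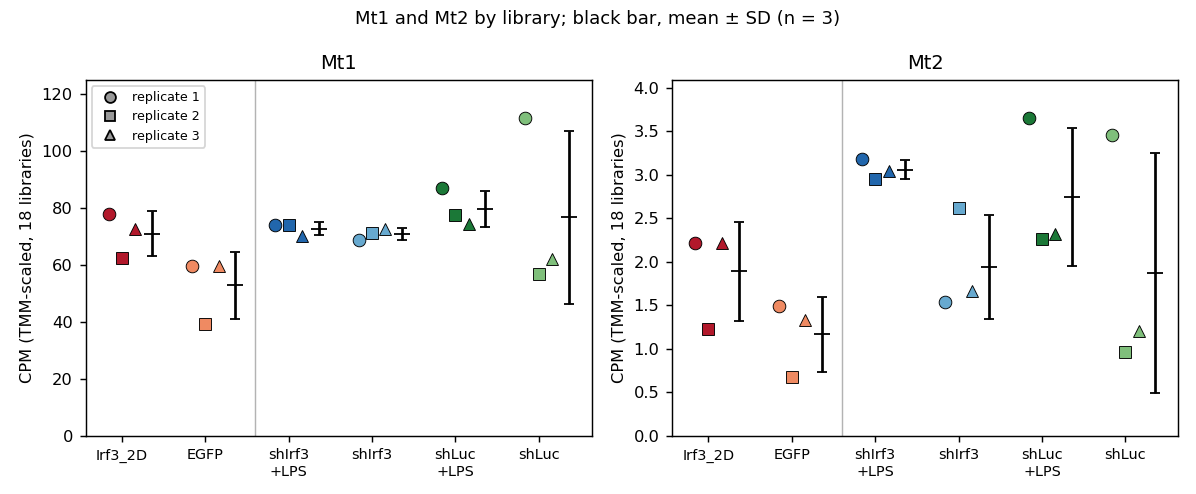
Level of Mt1 (left) and Mt2 (right) in CPM in each library of the 6 groups, with replicates 1, 2 and 3 as circle, square and triangle and the mean ± SD of each group as a black bar. For both genes shLuc replicate 1 lies far above shLuc replicates 2 and 3, at 111.7 CPM for Mt1 and 3.45 CPM for Mt2, and the shIrf3 libraries with LPS lie close together.

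Mt1 and Mt2 were both higher on average in Irf3_2D cells than in cells with the EGFP vector, and neither passed the test. Mt1 had 78.1, 62.4 and 72.5 CPM in Irf3_2D replicates 1, 2 and 3, against 59.8, 39.3 and 59.6 CPM in EGFP replicates 1, 2 and 3. The Mt1 ranges did not overlap, with Irf3_2D replicate 2 closest to the controls, as was so in the same direction for 8.35% of all gene models tested. Scaled by library totals instead, Irf3_2D replicate 2 stood at 57.4 CPM and EGFP replicate 1 at 59.4 CPM, so the ranges overlapped. Mt2 had 2.22, 1.23 and 2.22 CPM in Irf3_2D, against 1.49, 0.677 and 1.33 CPM in EGFP. The Mt2 ranges overlapped, since Irf3_2D replicate 2 lay below EGFP replicates 1 and 3. The fitted log2 fold change was 0.42 ± 0.18 for Mt1 (SE, 95% interval 0.021 to 0.82, edgeR adjusted p = 0.422) and 0.73 ± 0.35 for Mt2 (SE, 95% interval -0.061 to 1.52, edgeR adjusted p = 0.515). Of the 13931 gene models tested, 9.72% had an unadjusted p in edgeR's test at or below that of Mt1. Of the 2 genes, 0 were called by edgeR, DESeq2 or limma-voom, with 1 at an unadjusted p under 0.05, and edgeR called 1.45% of all gene models in this comparison. Leaving out EGFP replicate 2, where both genes were lowest, the log2 fold changes were 0.24 for Mt1 and 0.43 for Mt2.

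The Irf3 hairpin without LPS gave no call for either gene, and the outcome turned on shLuc replicate 1. Mt1 had 68.8, 71.3 and 72.8 CPM in shIrf3 replicates 1, 2 and 3, against 111.7, 56.7 and 62.0 CPM in shLuc replicates 1, 2 and 3. Mt2 had 1.53, 2.62 and 1.66 CPM in shIrf3, against 3.45, 0.957 and 1.20 CPM in shLuc. For both genes the shIrf3 libraries lay between shLuc replicate 1 and the other two shLuc libraries. The log2 fold change was -0.13 ± 0.22 for Mt1 (SE, 95% interval -0.62 to 0.35, edgeR adjusted p = 0.775) and 0.032 ± 0.42 for Mt2 (SE, 95% interval -0.90 to 0.96, edgeR adjusted p = 0.977), where 8.56% of 14970 gene models were called. Without shLuc replicate 1 both were called higher in shIrf3, Mt1 at a log2 fold change of 0.26 (edgeR adjusted p = 0.0217) and Mt2 at 0.86 (edgeR adjusted p = 0.0495). In that fit 18.1% of 15188 gene models were called, and 10.7% of the 15188 were called higher. The shLuc group then averaged 59.3 CPM for Mt1 and 1.08 CPM for Mt2 over 2 libraries. Whether the high mitochondrial share of shLuc replicate 1 had a part in its metallothionein level was not tested.

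**Figure D2:**
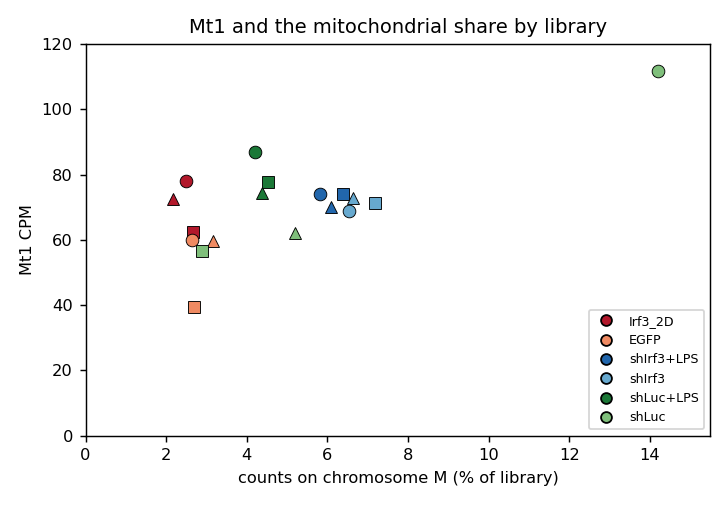
Level of Mt1 in CPM against the share of counts on chromosome M in each of the 18 libraries, coloured by group, with replicates 1, 2 and 3 as circle, square and triangle. One library, shLuc replicate 1, lies apart on both axes at 14.2% and 111.7 CPM, and the shIrf3 libraries have Mt1 levels of 68.8 to 72.8 CPM at mitochondrial shares of 6.53% to 7.17%.

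Under LPS, neither Mt1 nor Mt2 was called between knockdown and control cells. Mt1 had 74.0, 74.1 and 70.0 CPM in shIrf3 with LPS, against 86.9, 77.7 and 74.4 CPM in shLuc with LPS. The ranges were apart by a narrow margin, as was so in this direction for 20.8% of the gene models tested, and they overlapped with library totals as the scaling, where the highest shIrf3 library with LPS had 78.6 CPM and the lowest shLuc library with LPS 76.6 CPM. Mt2 had 3.18, 2.95 and 3.05 CPM in shIrf3 with LPS, against 3.65, 2.26 and 2.32 CPM in shLuc with LPS. The shIrf3 values lay inside the range of the shLuc values. The log2 fold change was -0.11 ± 0.22 for Mt1 (SE, 95% interval -0.59 to 0.38, edgeR adjusted p = 0.844) and 0.19 ± 0.38 for Mt2 (SE, 95% interval -0.65 to 1.02, edgeR adjusted p = 0.846). They were -0.021 for Mt1 and 0.46 for Mt2 without shLuc replicate 1 with LPS, and the Mt2 value was 0.061 without shLuc replicate 2 with LPS and 0.076 without shLuc replicate 3 with LPS. Of all gene models 8.2% were called in this comparison, and 0 of the 2 metallothioneins by edgeR, DESeq2 or limma-voom, with 0 at an unadjusted p under 0.05.

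In control cells, LPS was set against no LPS, and again the reading depended on shLuc replicate 1. Mt1 had 86.9, 77.7 and 74.4 CPM in shLuc with LPS, against 111.7, 56.7 and 62.0 CPM in shLuc. All 3 libraries with LPS were above shLuc replicates 2 and 3 and below shLuc replicate 1. Mt2 had 3.65, 2.26 and 2.32 CPM in shLuc with LPS, against 3.45, 0.957 and 1.20 CPM in shLuc. The Mt2 ranges overlapped through shLuc replicate 1 alone, since the libraries with LPS all lay above the other two. The log2 fold change was 0.055 ± 0.22 for Mt1 (SE, 95% interval -0.43 to 0.54, edgeR adjusted p = 0.932) and 0.53 ± 0.40 for Mt2 (SE, 95% interval -0.35 to 1.42, edgeR adjusted p = 0.528), and neither was called, where edgeR called 8.72% of all gene models. Without shLuc replicate 1 both were called higher with LPS: the log2 fold change was 0.44 for Mt1 (edgeR adjusted p = 0.000417) and 1.36 for Mt2 (edgeR adjusted p = 0.00288). In that fit 11.5% of 15188 gene models were called, and 6.3% of the 15188 were called higher. Without shLuc replicate 2 the log2 fold changes were -0.14 for Mt1 and 0.19 for Mt2, and without shLuc replicate 3 they were -0.076 and 0.31, with no call. They were -0.025 and 0.26 without shLuc replicate 1 with LPS. The call without shLuc replicate 1 rests on 2 control libraries whose spread is taken as that of the whole arm.

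In knockdown cells, the mean of Mt2 was higher with LPS, and that of Mt1 was 72.7 CPM with LPS and 71.0 CPM without. Mt2 had 3.18, 2.95 and 3.05 CPM in shIrf3 with LPS, against 1.53, 2.62 and 1.66 CPM in shIrf3. The Mt2 ranges did not overlap, also with library totals as the scaling, and the same held in this direction for 13% of the gene models tested. The log2 fold change of Mt2 was 0.69 ± 0.40 (SE, 95% interval -0.20 to 1.57, edgeR adjusted p = 0.361), a 1.61-fold difference that was not called, where 8.01% of all gene models were. Fitted from the 6 libraries of this comparison alone, the log2 fold change of Mt2 was 0.69 with an edgeR adjusted p of 0.0132, where 20% of 14436 gene models were called, and over all alternatives that kept every library the adjusted p of Mt2 ran from 0.0132 to 0.537. The spread in the fit of the whole arm is shared with the shLuc libraries, and without shLuc replicate 1 the log2 fold change of Mt2 was again 0.69, with an edgeR adjusted p of 0.0509. Mt1 had 74.0, 74.1 and 70.0 CPM in shIrf3 with LPS, against 68.8, 71.3 and 72.8 CPM in shIrf3. The Mt1 ranges overlapped, with a log2 fold change of 0.081 ± 0.22 (SE, 95% interval -0.40 to 0.57, edgeR adjusted p = 0.877) and of 0.085 from the 6 libraries alone (edgeR adjusted p = 0.219).

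The LPS responses of knockdown and control cells were compared by the interaction term, which is the log2 response in shIrf3 less that in shLuc. It was 0.026 ± 0.31 for Mt1 (SE, 95% interval -0.66 to 0.71, edgeR adjusted p = 0.999) and 0.15 ± 0.57 for Mt2 (SE, 95% interval -1.10 to 1.41, edgeR adjusted p = 0.997). In this contrast edgeR called 0% of the 14970 gene models, with 848 at an unadjusted p under 0.05, limma-voom called 0 and DESeq2 called 12, neither metallothionein among them. Without shLuc replicate 1 the terms were -0.36 for Mt1 (edgeR adjusted p = 0.197) and -0.67 for Mt2 (edgeR adjusted p = 0.525), where 0.0988% of gene models were called. The intervals leave room for a difference of more than 2-fold in Mt2 in either direction, and the sign changed for both genes with that library.

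**Figure D3:**
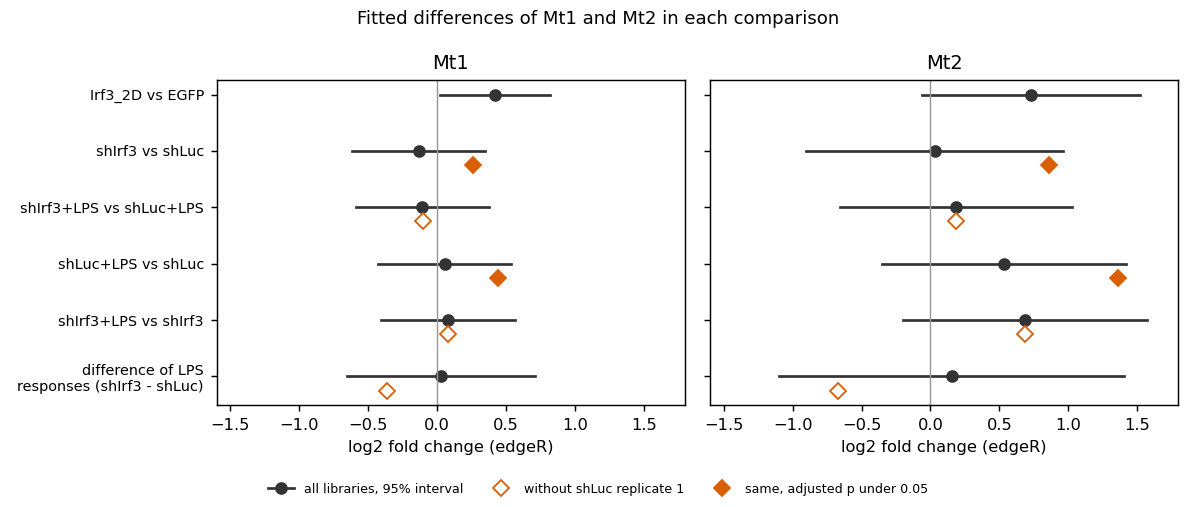
Log2 fold change of Mt1 (left) and Mt2 (right) in each comparison, first-named group over second, with the 95% interval of the edgeR fit of all libraries of the arm (dark circles and lines), and the value without shLuc replicate 1 (diamonds, filled where the adjusted p was under 0.05). Filled diamonds appear for shIrf3 against shLuc and for shLuc with LPS against shLuc, at 0.26 and 0.44 for Mt1 and at 0.86 and 1.36 for Mt2.

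Mt1 and Mt2 varied together from library to library, and in each of the 6 groups the coefficient of variation was larger for Mt2, from 3.70% in shIrf3 with LPS to 73.4% in shLuc. Over the 18 libraries log2(CPM + 1) of both genes had a Pearson r of 0.843 and a Spearman rho of 0.829, and deviations from the group means had a Pearson r of 0.905. Without shLuc replicate 1 the first was 0.843 and the second 0.786. These are descriptions, since a library's scaling factor and depth are shared by both genes. Within groups, the library with the highest Mt1 also had the highest Mt2 in Irf3_2D, EGFP, shLuc with LPS and shLuc, and not in shIrf3 or in shIrf3 with LPS.

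The ratio of Mt1 to Mt2 within a library does not depend on the scaling of libraries, and its group means were lowest in both groups with LPS. The log2 ratio per kilobase of exon averaged 4.13 ± 0.0685 in shIrf3 with LPS and 4.79 ± 0.406 in shIrf3 (SD, n = 3 each; difference -0.664, exact two-sided permutation p = 0.1, adjusted p = 0.333 over 5 comparisons). The ranges were apart: the log2 ratio was 4.10, 4.21 and 4.08 in shIrf3 with LPS, against 5.05, 4.33 and 5.01 in shIrf3. The log2 ratio averaged 4.45 ± 0.282 in shLuc with LPS and 5.09 ± 0.457 in shLuc (SD, n = 3 each, difference -0.637, exact permutation p = 0.2, adjusted p = 0.333). Here shLuc replicate 1, at 4.57, lay among the libraries with LPS, at 4.13, 4.66 and 4.57, below shLuc replicates 2 and 3, at 5.45 and 5.24. The difference for LPS in shLuc was -0.894 without shLuc replicate 1 (exact permutation adjusted p = 0.25). The smallest p that 3 libraries against 3 allow is 0.1. It averaged 4.84 ± 0.342 in Irf3_2D and 5.12 ± 0.273 in EGFP (SD, n = 3 each; difference -0.280, exact permutation p = 0.3, adjusted p = 0.375), and the difference was -0.129 without EGFP replicate 2 and -0.475 without Irf3_2D replicate 2. For shIrf3 less shLuc it was -0.295, from the means above (exact permutation p = 0.5, adjusted p = 0.5), and for shIrf3 with LPS less shLuc with LPS it was -0.323 (exact permutation p = 0.2, adjusted p = 0.333). The difference for shIrf3 less shLuc was -0.552 without shLuc replicate 1 (exact permutation adjusted p = 0.25), -0.116 without shLuc replicate 2 and -0.061 without shIrf3 replicate 2.

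**Figure D4:**
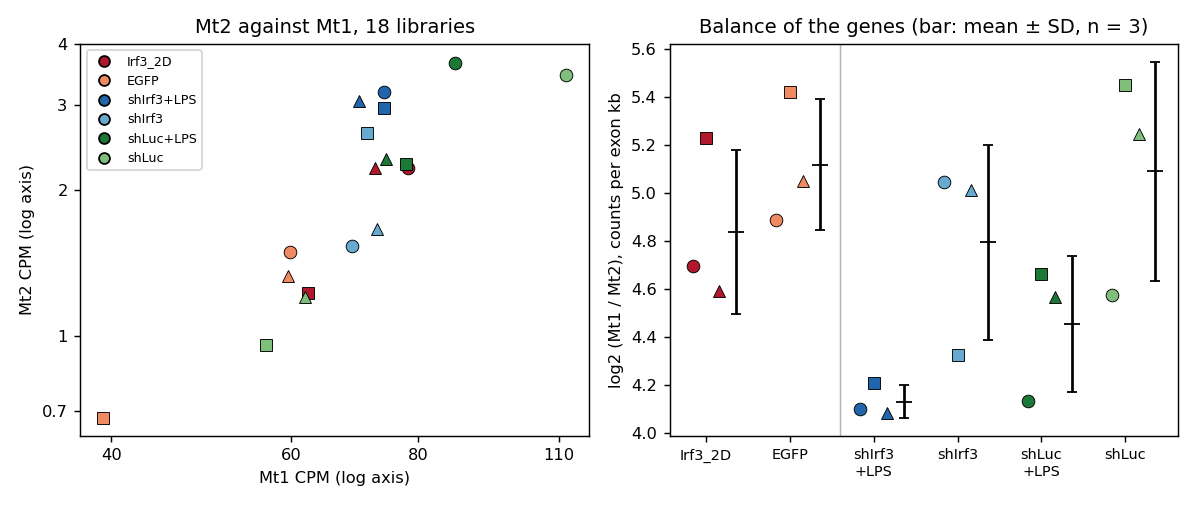
Left, Mt2 against Mt1 in CPM on log axes in the 18 libraries, coloured by group. Right, log2 ratio of Mt1 to Mt2 in counts per exon kilobase, with the mean ± SD of each group as a black bar; circles, squares and triangles are replicates 1, 2 and 3. The shIrf3 libraries with LPS lie lowest as a group, at 4.08 to 4.21, and shLuc replicate 1 lies below the other shLuc libraries.

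Gene models around the cluster were taken from the same fits. Of 16 gene models lying wholly within 500 kb of either edge of the window, 14 were tested. For Irf3_2D against EGFP 0 were called, where 1.45% of all gene models were: their log2 fold changes lay between -0.15 and 1.04, with a lowest edgeR adjusted p of 0.202. For shIrf3 against shLuc 1 was called higher and 1 lower, under LPS 1 lower, for LPS in shLuc 1 higher, and for LPS in shIrf3 1 higher and 1 lower, where 8.56%, 8.2%, 8.72% and 8.01% of all gene models were called in these 4 comparisons. Without shLuc replicate 1, 15 were tested: 2 were called higher and 1 lower for shIrf3 against shLuc, where 18.1% of all gene models were, and 1 higher for LPS in shLuc, where 11.5% were. Within 250 kb, 8 were tested and 0 were called in any of the 6 comparisons. With so few models tested and shares of up to 18.1% over all gene models, these counts do not set the flanks apart from other gene models.

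Outside the cluster, the gene models most like the metallothioneins over the 12 libraries of the knockdown and LPS arm were sought among 10033 candidates with a mean of at least 5 CPM. The gene model uc008vwd.1 on chromosome 4 (mm9, 148702525 to 148800740, 28 exons) had a Pearson r of 0.944 with the mean log2 CPM of Mt1 and Mt2, and 0.932 without shLuc replicate 1. Its level was 56.8, 55.6 and 55.4 CPM in shLuc with LPS, against 63.0, 46.4 and 47.7 CPM in shLuc, so that shLuc replicate 1 was again the highest. The gene model uc008ugn.1 on chromosome 4 (mm9, 115979367 to 116136788, 30 exons) had a Pearson r of 0.930, and 0.919 without that library. Neither was called in any of the 5 comparisons of the arm. These values were picked as the highest of many and carry no test.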

How the data were processed

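The 18 RNA-seq libraries were put into 6 groups of 3 by their titles. Libraries were prepared with an unstranded TruSeq v2 kit after ribosomal RNA had been depleted from 70 ng of RNA, per the labels' protocols. TopHat2 2.0.14 and featureCounts 1.4.6 are among the tools that the submitters' processing notes name, with build mm9, and their settings are not given in the sources used. The file deposited by the authors holds unnormalized read counts for each gene model, and its exon length per the file headers.

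Low counts were removed with filterByExpr and libraries scaled by TMM. The main test was edgeR's quasi-likelihood one (version 4.0.16, R 4.3.3, robust fit), run on 6 libraries for overexpression and on 12 for the other arm. Calls were made at a Benjamini-Hochberg adjusted p under 0.05, adjusted over the whole table. Standard errors were derived from the log2 fold change and its F statistic. The members, lists and window were chosen with earlier results of these data known. Both members passed the low-count filter in both arms. Metal-handling and cell type lists had been written down, and no result of them is given. Neither gene table used here holds any of the 27473 identifiers, and pairing by position was done for the cluster alone. Outside the cluster, the naming rule took the 2 gene models with the highest Pearson r with the members.

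Chi-square tests of counts found every replicate pair to differ by more than sampling noise (3.38 to 350 per degree of freedom), so each library counted once. Other settings tried were RLE factors, library totals, limma-voom (limma 3.58.1), DESeq2 1.42.0, 2 other low-count filters, each library left out, a block for the replicate number, chromosome M left out, only the 6 libraries compared and all 18 in one fit. The correlations and the flanking counts without shLuc replicate 1 were chosen after seeing the data. Leaving out each library in turn was planned, and this library was singled out after seeing the data.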

Additional observations from a re-analysis of the deposited data

How the results depend on the processing

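Mt1 and Mt2 kept their direction in 3 comparisons (Irf3_2D against EGFP, knockdown against control under LPS, and LPS in shIrf3) under every alternative run. For Irf3_2D against EGFP no alternative gave a call, and the log2 fold change ran from 0.24 to 0.52 for Mt1 and from 0.43 to 0.96 for Mt2 as single libraries were left out. Knockdown against control under LPS ran from -0.16 to -0.021 for Mt1 and from 0.061 to 0.46 for Mt2, without a call. For LPS in shIrf3 it ran from 0.063 to 0.11 for Mt1 and from 0.56 to 0.97 for Mt2, and the only call was Mt2 at 0.69 from the 6 libraries alone. Leaving out single libraries, shIrf3 against shLuc ran from -0.32 to 0.26 for Mt1 and from -0.29 to 0.86 for Mt2, and LPS in shLuc from -0.14 to 0.44 for Mt1 and from 0.19 to 1.36 for Mt2, each highest value being the one without shLuc replicate 1 and a call. The interaction ran from -0.36 to 0.23 for Mt1 and from -0.67 to 0.49 for Mt2, without a call. Its sign for Mt1 also turned without shLuc replicate 3 with LPS (-0.022), with library totals (-0.061), limma-voom (-0.042) and all 18 libraries in one fit (-0.018), and for Mt2 with limma-voom (-0.014). The cause of these turns was not tested.

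The replicate numbers gave no sign of pairing the libraries. Of 15 same-numbered pairs 1 had deviations correlated above 0.1, and 5 libraries matched their own number best. With 3 candidates for each library, random matching would give as many, and the check cannot exclude a pairing. With the replicate block the interaction for Mt1 was -0.014, no other direction turned and no member was called; the calls over all gene models went to 236 of 13931 for Irf3_2D against EGFP, against 202 without the block. The difference in the log2 ratio of Mt1 to Mt2 kept its sign in all 45 recomputations. Those with raw counts and with the replicate block could not change that sign, and adding 0.5 count hardly could. Only leaving out single libraries bears on it, and the size of the difference depended on them. It ran from -0.475 to -0.129 for Irf3_2D against EGFP, from -0.552 to -0.061 for shIrf3 against shLuc, from -0.483 to -0.218 under LPS, from -0.894 to -0.457 for LPS in shLuc and from -0.898 to -0.538 for LPS in shIrf3. Within 250 kb instead of 500 kb, 0 flanking gene models were called for shIrf3 against shLuc, 0 under LPS, 0 for LPS in shLuc and 0 for LPS in shIrf3, of 8 tested, where 8.56%, 8.2%, 8.72% and 8.01% of all gene models were called. Of 24 group levels under other scalings, 22 moved by less than 1 SD. The 2 that moved further were those of shIrf3 with LPS under library totals. There Mt1 went from 72.7 to 76.1 CPM (SD 2.33) and Mt2 from 3.06 to 3.20 CPM (SD 0.113). Depth limits Mt2, whose lowest count was 20.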
